A study of Mus musculus with 2 samples.

Results

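The Krüppel-like factors are a family of zinc finger transcription factors, and 10 of them (Klf3, Klf4, Klf5, Klf6, Klf7, Klf9, Klf10, Klf11, Klf13 and Klf15) were followed here in the mouse corneal epithelium during the repair of a wound. They were taken as the rows of the deposited expression table whose platform gene symbol is one of these names. All 10 were found, each on 1 row of its own, among 30698 named genes. Of the 7 other mouse genes named Klf that were looked up (Klf1, Klf2, Klf8, Klf12, Klf14, Klf16 and Klf17), each also had a row, and they serve for comparison.

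The mice were 8 weeks old, of the C57BL/6 strain and of both sexes. In the injured eye the whole thickness of the corneal epithelium was taken off as far as the limbus with a 0.5 mm rust ring remover, and about 48 hours later, with 10% of the wound still open, the epithelium was collected from that eye and from the unwounded fellow eye. There was 1 injured and 1 uninjured array of biotin-labelled RNA, both of whole epithelium without sorting, and the labels do not say how many mice each array stands for. Both eyes belonged to wounded and anaesthetised animals, so the uninjured sample is a fellow eye and not an eye of an untouched mouse.

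All Krüppel-like factors share 3 zinc fingers at the end of the protein, which read GC-rich DNA of the CACCC and GC box kind, and they differ in the rest of the protein, which recruits activators or repressors. Klf4 and Klf5 are known for their part in the corneal epithelium: the mouse cornea needs both for a normal stratified surface, with Klf4 tied to the differentiated upper layers and Klf5 to proliferating basal cells of many epithelia. Klf10 and Klf11 were first described as genes induced by transforming growth factor beta, and Klf9, Klf13 and Klf15 are known from hormone responses, the circadian clock and metabolism.

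The deposited values are log2 intensities, so a difference of 1 between the arrays is 2-fold, and every difference below is the injured minus the uninjured value. A gene was counted as measured when the brighter of its 2 values reached 5.44, the middle of the deposited values, which 19512 genes did. All 10 Krüppel-like factors had both values above this level. With 1 array per group there is no spread between samples, no test and no p-value. The only error the data hold is the disagreement between different rows of one gene on these arrays, whose SD was 0.242 for the difference (542 rows of 256 genes). This SD leaves out all variation between animals. In RNA from whole epithelium, fewer cells of a type and less RNA per cell cannot be told apart.

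Of the 10 factors, Klf10 was at least 2-fold higher in the injured epithelium, Klf4 and Klf3 were at least 2-fold lower, and 7 were less than 2-fold apart. The background over all measured genes was 4.14% higher by this rule, 3.92% lower and 8.06% in either direction. At 1.5-fold, 3 factors were higher (Klf10, Klf7 and Klf13) and 3 were lower (Klf4, Klf3 and Klf11), against 11.1% and 8.76% of all measured genes (19.9% in either direction). At 4-fold 0 of the factors passed, against 0.707% of all genes higher and 0.779% lower (1.49% in either direction). The median difference of the 10 was -0.25, and that of all measured genes was 0.06. Without regard to sign, the median size of the difference was 0.64 for the factors and 0.22 for all measured genes. The factors were named with earlier results of these arrays known, so these counts describe them and support nothing further.

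**Figure D1:**
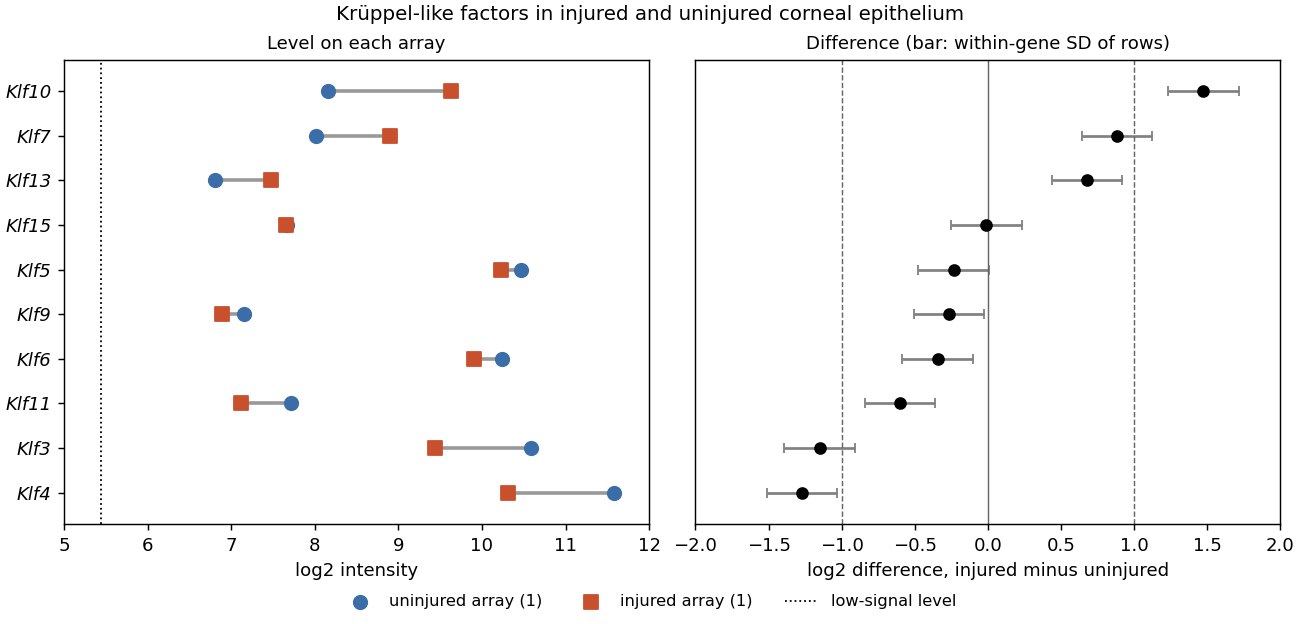
The left panel plots the log2 intensity of each Krüppel-like factor on the uninjured array (circle) and the injured array (square), with the low-signal level of 5.44 as a dotted line; levels of different genes come from different probes and are not comparable. The right panel plots the difference, injured minus uninjured, with a bar of 1 within-gene SD of rows (0.242) on each side and dashed lines at 2-fold, and the values run from -1.27 for Klf4 to 1.47 for Klf10.

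Among the factors that mainly activate transcription, Klf4 stood out. Klf4, which drives barrier and differentiation genes in stratified epithelia and is also one of the reprogramming factors, had a value of 11.58 in the uninjured and 10.31 in the injured array. This is a log2 difference of -1.27, or 2.41-fold lower. Of all measured genes 2.30% had a lower difference, and among the 663 genes whose mean level lay within 0.5 of that of Klf4, 94.7% differed by less. Both values lay far above the low-signal level.

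Klf5, which promotes proliferation in basal layers and in the gut crypt, was nearly level. Its value was 10.47 in the uninjured and 10.23 in the injured array, a difference of -0.23, which is smaller than the within-gene SD. Klf6, an early wound- and injury-responsive factor in several tissues, measured 10.24 uninjured and 9.90 injured (-0.34), less than 2 within-gene SDs. Klf7, known from the outgrowth of neurons, went the other way, with 8.01 uninjured and 8.89 injured. Its difference of 0.88 was 1.84-fold and 3.65 times the within-gene SD. Of these 4 activators 3 were below 0 and 1 above, against 40.8% and 58.4% of all measured genes. The 4 spanned 2.15 on the log2 scale.

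The repressor Klf3, which binds the corepressor CtBP, was lower. Its values were 10.59 in the uninjured and 9.44 in the injured array, a difference of -1.15, or 2.22-fold. Its difference and that of Klf4 were 0.12 apart, less than the within-gene SD. A lower difference than that of Klf3 was found in 2.90% of measured genes. Klf12, a CtBP-binding relative outside the 10, was higher, with 5.18 uninjured and 6.75 injured (1.57). Its uninjured value lay below the low-signal level, so the size of its difference depends on the low end of the scale: it was 1.32 when a constant was added to the linear values. Klf8, the third factor of this kind, stayed below the low-signal level in both arrays (4.35 uninjured, 4.44 injured).

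The factors that recruit the corepressor Sin3 divided. Klf10, the growth-inhibiting factor induced by transforming growth factor beta, had the highest difference of the 10. It measured 8.15 in the uninjured and 9.63 in the injured array, a difference of 1.47, or 2.78-fold higher. Of all measured genes 98.3% had a lower difference. The closest relative of Klf10, Klf11, was lower, with 7.71 uninjured and 7.11 injured, a difference of -0.60 (1.52-fold). The pair therefore lay 2.07 apart on the log2 scale, in opposite directions. Klf13, known from lymphocytes and heart, was higher, with 6.80 uninjured and 7.48 injured (0.68, or 1.60-fold). Klf9, a target of glucocorticoid and thyroid hormone, measured 7.15 uninjured and 6.89 injured, and this difference of -0.27 is close to 1 within-gene SD. Klf16, a relative outside the 10, differed by 0.12.

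Klf15, a regulator of amino acid and glucose use, was the most even of the factors. Its values were 7.67 in the uninjured and 7.66 in the injured array, a difference of -0.01.

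In order from the lowest difference the factors stood as Klf4, Klf3, Klf11, Klf6, Klf9, Klf5, Klf15, Klf13, Klf7 and Klf10. Of the 9 gaps between neighbours in this order 5 were smaller than the within-gene SD, namely those from Klf4 to Klf3, from Klf6 to Klf9, from Klf9 to Klf5, from Klf5 to Klf15 and from Klf13 to Klf7. The step from Klf3 to Klf11 (0.55), that from Klf15 to Klf13 (0.69) and that from Klf7 to Klf10 (0.59) were the widest. A gap carries the error of both genes, and the SD holds no variation between animals, so the order describes these arrays and was not tested.

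**Figure D2:**
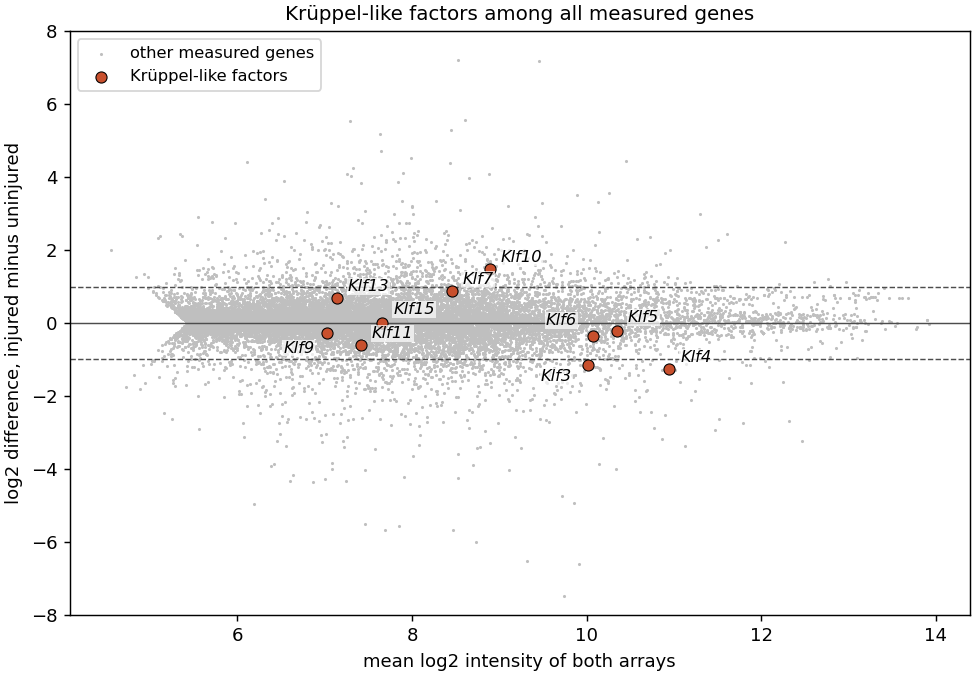
Each grey point is 1 of the measured genes, with its mean log2 intensity over both arrays on the horizontal axis and its log2 difference, injured minus uninjured, on the vertical axis; dashed lines mark 2-fold. The Krüppel-like factors, in red, lie inside the dashed lines except Klf10 above and Klf3 and Klf4 below.

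Elsewhere in the family 1 of 4 measured genes, Klf12, was 2-fold apart, against 8.06% of all measured genes. Klf12 counted as measured only through its injured value (5.18 uninjured, 6.75 injured), so this count carries little weight. The median of these other family genes was 0.18, and -0.09 when both values had to reach the low-signal level. Klf2, the factor of quiescent endothelium and lymphocytes, measured 6.88 uninjured and 6.58 injured (-0.30). Klf1, the red cell factor, measured 5.32 uninjured and 5.57 injured, at the low-signal level. Klf14 and Klf17 stayed below that level in both arrays. Of the 9 Sp factors, the nearest relatives outside the family, 7 were measured, with a median of 0.01. Past 2-fold were 0 of these 7, against the same 8.06%. The ubiquitous Sp1 differed by 0.20 and Sp3, which binds the same GC boxes, by -0.22. Sp4 (0.08), Sp7 (0.01), Sp8 (0.10) and Sp9 (0.01) differed little, and Sp6, a factor of tooth and skin epithelium, had the lowest value of the group at -0.76. Sp6 also shares a second row with another gene, which was not used. Sp5 stayed below the low-signal level, and Sp2 was not analysed here.

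Promoter sequences of these factors were searched for short motifs. Of the 10 factors 8 had an entry in the RefSeq promoter table of mouse build GRCm38.p6, and the 250 bases before the start site were searched. Klf5 and Klf10 had no entry. These windows were rich in CG: they held between 13 and 37 CG dinucleotides with a median of 23.5, against a median of 6 over all 32851 windows of the table. The windows of Klf3 and Klf4, the factors at least 2-fold lower, are shown with that of Klf7, the highest of those with an entry, each from 5′ to 3′ on the strand of the gene. Capitals mark the CACCC box (CACCC or its reverse complement GGGTG) and the GC box (GGGCGG or CCGCCC) for Klf3 and Klf7, and the GC box and the E-box (CACGTG, which is its own reverse complement) for Klf4.
Klf3, chr5:64803271-64803520, plus strand: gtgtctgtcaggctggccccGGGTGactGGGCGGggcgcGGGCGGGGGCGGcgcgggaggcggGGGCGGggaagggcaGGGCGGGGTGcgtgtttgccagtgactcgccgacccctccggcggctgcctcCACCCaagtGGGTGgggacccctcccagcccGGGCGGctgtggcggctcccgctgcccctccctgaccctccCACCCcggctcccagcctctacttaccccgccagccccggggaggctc
Klf4, chr4:55532476-55532725, minus strand: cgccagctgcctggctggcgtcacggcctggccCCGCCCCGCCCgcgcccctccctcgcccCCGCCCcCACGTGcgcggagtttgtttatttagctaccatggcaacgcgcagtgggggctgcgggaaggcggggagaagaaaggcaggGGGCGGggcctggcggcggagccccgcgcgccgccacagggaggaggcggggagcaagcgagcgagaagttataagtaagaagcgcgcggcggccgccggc
Klf7, chr1:64121390-64121639, minus strand: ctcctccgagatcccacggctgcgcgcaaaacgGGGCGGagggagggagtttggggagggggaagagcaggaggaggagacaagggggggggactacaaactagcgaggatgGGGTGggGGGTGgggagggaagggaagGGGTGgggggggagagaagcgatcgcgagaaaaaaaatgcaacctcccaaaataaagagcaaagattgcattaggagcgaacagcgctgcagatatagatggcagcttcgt

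The window of Klf3 held 5 CACCC boxes and 6 GC boxes, and no E-box. That of Klf4 held 0 CACCC boxes, 4 GC boxes and 1 E-box, and that of Klf7 held 3 CACCC boxes and 1 GC box. Neighbouring matches can share bases, as the 2 GC boxes at the left of the Klf4 window do. Over the 8 factors, a CACCC box was found in 5 windows, a GC box in 7 and a CCAAT box (CCAAT or ATTGG) in 5. Over all windows of the table the shares were 52.0%, 32.7% and 33.8%. Over the 10362 windows with at least 13 CG, the lowest number among the factors, they were 60.1%, 73.5% and 32.2%. The median among the factors was 23.5 CG, so these windows are not matched to them in CG. The E-box, the element read by the circadian clock proteins and by Myc, was found in 4 windows, those of Klf4, Klf6, Klf11 and Klf15, against 6.02% of all windows and 9.74% of those with at least 13 CG. The window of Klf15 held 2 of them.
Klf15, chr6:90462326-90462575, plus strand, E-boxes in capitals: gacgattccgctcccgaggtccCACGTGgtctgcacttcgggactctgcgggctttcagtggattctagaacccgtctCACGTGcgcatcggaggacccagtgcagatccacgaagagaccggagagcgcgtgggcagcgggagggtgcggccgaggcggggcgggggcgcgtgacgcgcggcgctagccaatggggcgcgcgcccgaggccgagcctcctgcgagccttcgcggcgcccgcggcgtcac

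The factors with an E-box in this window had differences of -1.27 (Klf4), -0.60 (Klf11), -0.34 (Klf6) and -0.01 (Klf15). The last is too close to 0 to have a sign, and 40.8% of all measured genes were below 0. Those without one had Klf3 at -1.15, Klf9 at -0.27, Klf13 at 0.68 and Klf7 at 0.88. A match is a description of these letters and shows no binding.

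Genes that earlier work tied to Klf4 or Klf5 in the cornea and its surface were mostly lower in the injured epithelium. This list, like those that follow, was chosen with results of these arrays known, so its direction is not independent evidence. Of 12 genes 11 were measured, with a median of -2.68 against 0.06 over all measured genes. At least 2-fold lower were 7 and higher 0, against 3.92% and 4.14% of all measured genes. The same shares are the background for the counts of the lists below. Slurp1, a secreted immunomodulatory peptide whose promoter Klf4 is known to activate, measured 13.22 uninjured and 6.61 injured (-6.61). The water channel Aqp5 measured 12.08 and 8.21 (-3.87), and the crystallin Aldh1a1 10.54 and 7.24 (-3.30). The cornea-specific keratin Krt12 measured 14.07 and 10.85 (-3.22), and its uninjured value is the highest of that array, for which no saturation call was used. The other genes past 2-fold were the desmogleins Dsg1a (-2.87) and Dsg1b (-2.15) and the crystallin Aldh3a1 (-2.68). Within 2-fold were Aqp3, a water and glycerol channel (-0.56), the junction protein Tjp1 (-0.57), desmoplakin, Dsp (-0.30), and E-cadherin, Cdh1 (0.35). Tkt shares its row with another gene and has no value here. All of these genes have other regulators, and a part of Klf4 in their values was not tested.

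Other regulators of epithelial differentiation were within 2-fold but for 2, Prdm1 and Pax6. Of 13 measured genes 11 had a difference below 0 (40.8% of all measured genes did), 2 were at least 2-fold lower and 0 were 2-fold higher, with a median of -0.37. Prdm1, a transcriptional repressor needed for the last steps of differentiation in several cell types, measured 8.95 uninjured and 7.19 injured (-1.76), and Pax6, the eye-specifying factor, 10.63 and 9.31 (-1.32). Zfp750, which lies upstream of Klf4 in the epidermis, differed by -0.37, and the grainyhead factor Grhl3 by -0.33. Cebpa (0.72) and Cebpb (0.33) were the 2 above 0.

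**Figure D3:**
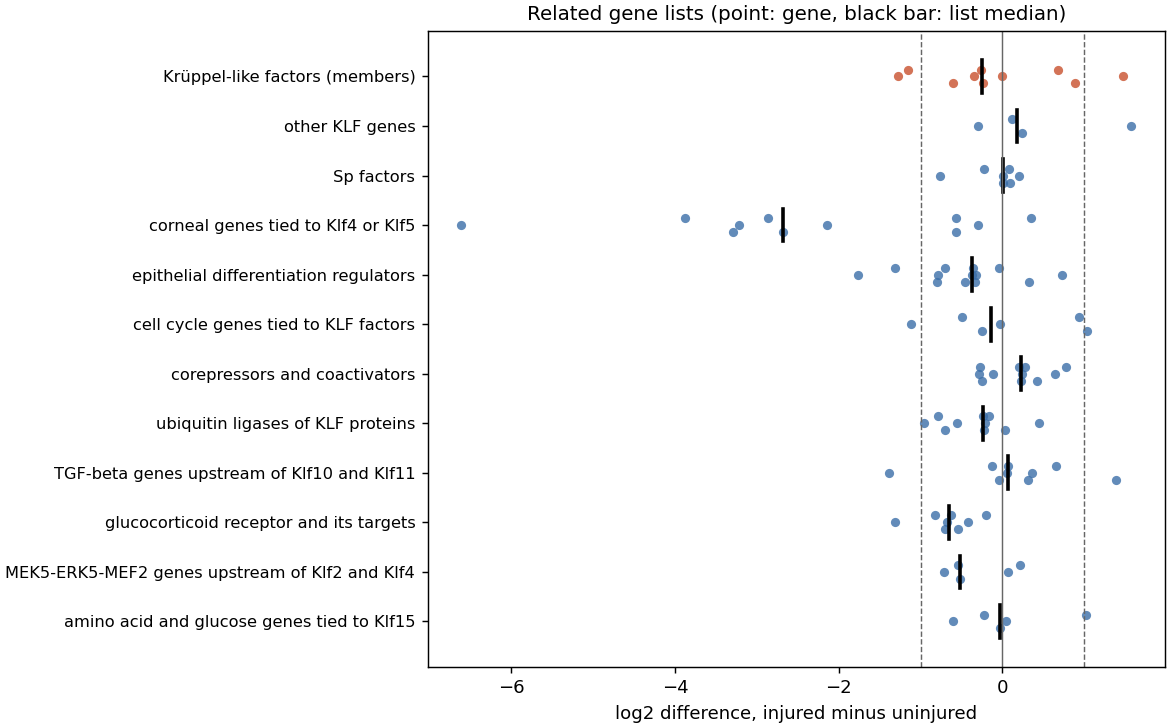
Each point is the log2 difference, injured minus uninjured, of 1 measured gene, in rows by gene list, with the list median as a black bar and dashed lines at 2-fold. The Krüppel-like factors spread from -1.27 to 1.47, the corneal genes tied to Klf4 or Klf5 reach down to -6.61, and the 8 glucocorticoid genes all lie below 0.

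Upstream of Klf10 and Klf11, the transforming growth factor beta genes went both ways. Of 9 measured genes 1, the receptor Tgfbr2 (7.83 uninjured, 9.22 injured), was at least 2-fold higher, while 1, the receptor Tgfbr1 (9.74 uninjured, 8.35 injured), at least 2-fold lower, with a median of 0.07. Among the ligands Tgfb1 differed by 0.65, Tgfb2 by 0.31 and Tgfb3 by 0.36. The signal carriers Smad2 (-0.12), Smad3 (-0.04) and Smad4 (0.05) were nearly level, as was Smad7 (0.07), the inhibitory Smad that Klf11 is known to repress.

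The glucocorticoid receptor and 7 of its known targets, a pathway that induces Klf9 and Klf15, were all below 0. The median of these 8 genes was -0.65, and over all measured genes 40.8% were below 0 and 58.4% above. At least 2-fold lower was 1 of them, Tsc22d3 (the glucocorticoid-induced leucine zipper), with 7.85 uninjured and 6.53 injured (-1.32). The receptor Nr3c1 differed by -0.82, the chaperone Fkbp5 by -0.70 and Zbtb16 by -0.67. Nearer to 0 were Errfi1 (-0.63), Sgk1 (-0.55), Per1 (-0.42) and Dusp1 (-0.20), the last by less than the within-gene SD. Klf9 (-0.27) and Klf15 (-0.01) lay nearer to 0 than the median of this list.

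For the kinase cascade that induces Klf2 and Klf4 in other cells (MEK5, ERK5 and the MEF2 factors), 5 of 6 genes were measured and 0 were 2-fold apart, with a median of -0.52. The factors Mef2d (-0.71) and Mef2a (-0.52) and the kinase Map3k3 (-0.54) were below 0, and Map2k5 (0.22) and Mapk7 (0.07) above. Mef2c stayed below the low-signal level, and with it counted the median was -0.22.

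Genes for partners of the proteins were all within 2-fold, as were most genes: 8.06% of all measured genes were 2-fold apart. Among 11 corepressors and coactivators 0 were 2-fold apart (median 0.23): Ctbp1, through which Klf3 acts, differed by 0.20, Ctbp2 by 0.23 and Sin3a, the partner of Klf9, Klf10, Klf11 and Klf13, by 0.24, and the deacetylase Hdac2 had the highest value at 0.78. Among 10 ubiquitin ligases reported to act on Krüppel-like factor proteins 0 were 2-fold apart (median -0.24). Fbxo32 had the lowest value (-0.96), Siah1a, a ligase of Klf10, differed by -0.71, and Wwp1 and Fbxw7, ligases of Klf5, by -0.23 and -0.22. Protein levels were not measured on these arrays.

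Cell cycle genes tied to these factors were split. Of 6 measured genes the cyclin-dependent kinase inhibitor Cdkn1b was at least 2-fold lower (-1.11) and Myc at least 2-fold higher (1.04), and the list median was -0.14. Cdkn1a, the inhibitor that Klf4 is known to activate, measured 10.92 uninjured and 10.67 injured (-0.25), and the cyclin Ccne1, which Klf4 can repress, differed by 0.93. Ccnd1, a target of Klf5, shares its row with another gene and has no value here. Of 5 measured genes of amino acid and glucose use listed for Klf15, the hexokinase Hk2 was higher (1.02) and 4 were within 2-fold, among them the proline dehydrogenase Prodh (0.04), the transaminases Gpt (-0.60) and Bcat2 (-0.23) and the glucose transporter Slc2a4 (-0.03).

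Markers of the tissue and of other cells stood beside these values as follows. Krt12, Krt5, Pax6, Aldh3a1, Slurp1 and Cdh1, the corneal epithelium markers, were all measured on both arrays. Their log2 summed level was 15.85 uninjured and 14.39 injured. Krt5 measured 13.85 uninjured and 13.69 injured (-0.16) and Cdh1 differed by 0.35, both within 2-fold. At least 2-fold lower were the other 4 of 6, against 3.92% of all measured genes. All but Krt5 also stand in the lists of corneal genes or differentiation regulators above, so this count repeats the same values. The leukocyte markers had a log2 summed level of 10.91 uninjured and 10.24 injured over 6 of 8 measured genes, and the pan-leukocyte gene Ptprc was below the low-signal level in both arrays. Itgam (-1.55) was the 1 measured leukocyte gene below 0, and the median was 0.16. The other 5 were above 0, from 0.10 (Cd3e) to 0.21 (Tyrobp), each by less than the within-gene SD of 0.242. Of all measured genes 58.4% were above 0. Without Itgam the log2 summed level of these markers was 9.44 uninjured and 9.62 injured. Of 5 endothelial markers 1 was measured, Cdh5, at the low-signal level (5.48 uninjured, 5.55 injured), and Pecam1, Kdr, Tek and Emcn stayed below it. The keratocyte genes Kera and Lum also stayed below it, and 4 of 6 stromal markers were measured (log2 summed level 8.71 uninjured, 8.43 injured). Of these Dcn was at least 2-fold lower (6.09 uninjured, 4.77 injured, -1.31), with its injured value below the low-signal level. Col1a1 (-0.12), Col1a2 (-0.13) and Col3a1 (-0.17) were nearly level. Conjunctival and goblet markers had a log2 summed level of 13.25 uninjured and 13.43 injured over 5 of 5 genes, with Krt19 higher (1.11) and Muc5ac lower (-1.26). Within 2-fold were Krt4 (11.85 uninjured, 11.98 injured, 0.14), Krt13 (12.06 uninjured, 11.77 injured, -0.29) and Spdef (0.07). The part of such cells in the differences of the Krüppel-like factors was not tested.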

How the data were processed

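RNA of injured and of fellow uninjured corneal epithelium was measured on 1 array each. The authors deposited log2 intensities of 65952 rows between 2.54 and 14.07, with medians of 5.44 (injured) and 5.43 (uninjured), and they were used as deposited. The submitters' processing notes name Agilent Feature Extraction 9.1, although the row names look like transcript clusters; background correction, row summary and normalization: not given in the sources used here. No detection or saturation call was used, and the number of arrays limits the precision.

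Rows were named from the platform annotation, updated through RefSeq (GRCm38.p6): 31254 rows carried 1 gene, 1492 several, and 33206 are unnamed here. For genes with several rows, that of highest mean was used. Named were all 10 members, every other Klf and Sp gene, up to 4 genes at least 2-fold apart from each list, and corneal markers; further list genes were chosen after their values were seen. Members and lists were chosen with earlier results of these data known. Scripts (Python 3.11.15, pandas 2.3.3, statsmodels 0.14.6) were tested on simulated data, where 200 of 200 changed genes were called. Those changes were set beyond 2-fold in brighter genes, with noise smaller than the within-gene SD. The simulation therefore checks the code and not the sensitivity on real arrays. Alternatives were 4 scalings, 3 filters, 2 row choices, 2 thresholds and adding 11.8 to the linear values.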

Additional observations from a re-analysis of the deposited data

How the results depend on the processing

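Each of the 10 factors kept its sign and its side of 2-fold in the main setting and all 10 alternatives of scaling, filter, row choice and added constant, and no difference moved by as much as the within-gene SD. Klf4 ranged from -1.33 to -1.26, Klf3 from -1.20 to -1.14 and Klf10 from 1.44 to 1.47. Klf7 ranged from 0.85 to 0.88, below 2-fold throughout. Each factor has 1 row and passed all 3 filters, so neither the 2 row choices nor the 3 filters could alter its difference. Only the 4 scalings and the added constant could do so. Counts moved with the threshold: 3 factors were higher at 1.5-fold, and at 4-fold 0 were higher and 0 were lower. Klf12 failed the filter that asks for both values, and the one at the 75th percentile. With the latter filter the median of the leukocyte markers moved from 0.16 to -0.67. The median over all measured genes moved between 0.03 and 0.06 with the setting. No paired analysis was possible because each group holds 1 array. Arrays limit every value here: 1 per group gives no variation between animals.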

Other observations

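Of the 20 genes that flank the factors in the RefSeq order of GRCm38.p6, 10 had a measured row of their own. Past 2-fold were 0 of these 10, against 8.06% of all measured genes. Beside Klf4 lay the non-coding RNAs Gm12506, with 5.55 uninjured and 5.37 injured (-0.18), and Gm22150 (0.32). Pibf1, next to Klf5, differed by 0.01, and Smc5, a chromosome maintenance gene next to Klf9, by 0.22. Next to Klf11 the pseudogene Gm6969 measured 10.54 uninjured and 9.83 injured (-0.71), beside -0.60 for Klf11 itself. Cys1, on the other side of Klf11, measured 5.56 uninjured and 5.53 injured (-0.03), near the low-signal level. A link between neighbours was not tested. Aldh1l1, a folate enzyme next to Klf15, differed by -0.45 where Klf15 differed by -0.01.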
